A study of Mus musculus with 6 samples.

Results

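Red pulp macrophages of the spleen engulf old red blood cells and return their iron to the circulation. Haem oxygenase, encoded by Hmox1, opens the haem ring, and ferroportin, encoded by Slc40a1, exports the freed iron from the cell. C1q, the recognition molecule that opens the classical complement pathway, is built from the chains encoded by C1qa, C1qb and C1qc, and macrophages are a main source of it. These genes are used as markers of macrophages in splenic cell preparations, including preparations of dendritic cells (DCs), which are antigen-presenting cells.

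The set described here holds 9 genes, namely Slc40a1, Hmox1, Vcam1, Marco, Vsig4, Cd5l, C1qa, C1qb and Cd163, out of 12393 genes measured. They were chosen by symbol, and each was read from its brightest probe set that the array annotation gives to a single gene. All 9 had such a probe set. The study measured CD11c-positive conventional DCs of BALB/c mice, an inbred strain, on Affymetrix arrays. The labels put 3 arrays under spleen and 3 under lymph node. The cells were sorted by flow cytometry, and no treatment, genotype, age or sex is given. Nothing in the labels ties the 3 arrays of a group to separate mice, so the p-values speak for these 3 arrays a group, whose spread may be technical. Values are log2 of the deposited intensity, and every difference is labelled spleen minus labelled lymph node.

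The conventional DC markers lay high on every array, with a mean over 9 measured genes of 9.56, 10.09 and 9.59 on the arrays labelled spleen and 9.67, 9.86 and 9.93 on the arrays labelled lymph node. Ccr7, the chemokine receptor that takes DCs from tissues to lymph nodes, stood at 10.78, 10.69 and 9.69 on the arrays labelled spleen and at 9.12, 8.58 and 9.06 on the arrays labelled lymph node (adjusted p = 0.0496 in limma). It passed in 1 of the 6 fits that omit 1 array, the one without spleen array 3, with an adjusted p of up to 0.19 in the others and differences from 1.27 to 1.82, and had an adjusted p of 0.88 with the poly-A level in the fit. Its direction goes against what the labels would lead one to look for. Most of the list went the other way: 3 of the 9 had a positive difference, and the median was -0.47. Sirpa, with the smallest adjusted p of the list, differed by -1.19 ± 0.16 (SE, adjusted p = 0.0121 in limma) and passed in 4 of those 6 fits. Ccr7 alone does not settle the labels, and the groups are called by their labels throughout. The array medians ran from 39.4 to 41.3 intensity units, and the number of arrays limits the precision. In limma, 421 of the 12393 genes (3.4%) had an adjusted p under 0.05, 251 (2.03%) higher and 170 (1.37%) lower in the arrays labelled spleen. That count was 56 without lymph node array 1, 47 without lymph node array 2 and 130 without spleen array 1. The bacterial poly-A control probe sets, which report RNA added during processing and not RNA of the cells, averaged 9.02, 8.41 and 9.06 on the arrays labelled spleen and 7.39, 7.80 and 7.96 on the arrays labelled lymph node. Their part in the results below was not tested beyond a fit that holds their level as a covariate, in which 0 genes passed in limma and 701 had an unadjusted p under 0.05.

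Lymph node array 3 stands apart from the other lymph node arrays in these genes. It held the highest of the 6 values for 7 of the 9 genes, where 14.7% of all genes had their highest value on that array. It read above both other lymph node arrays for 8 of the 9, against 37.3% of all genes. It did so by over 2 log2 units for 5 of the 9, Slc40a1, C1qb, Vcam1, Hmox1 and Cd5l. Over all genes the same was true of 37 (0.299%), and Slc40a1 was second among them by size. On each of the other 5 arrays, 0 of the 9 genes stood that far above the rest of the group, where the share of all genes was 0.153%, 0.00807% and 0.0565% on spleen arrays 1, 2 and 3 and 0% on lymph node arrays 1 and 2. Each difference between the groups is therefore given with and without lymph node array 3.

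**Figure D1:**
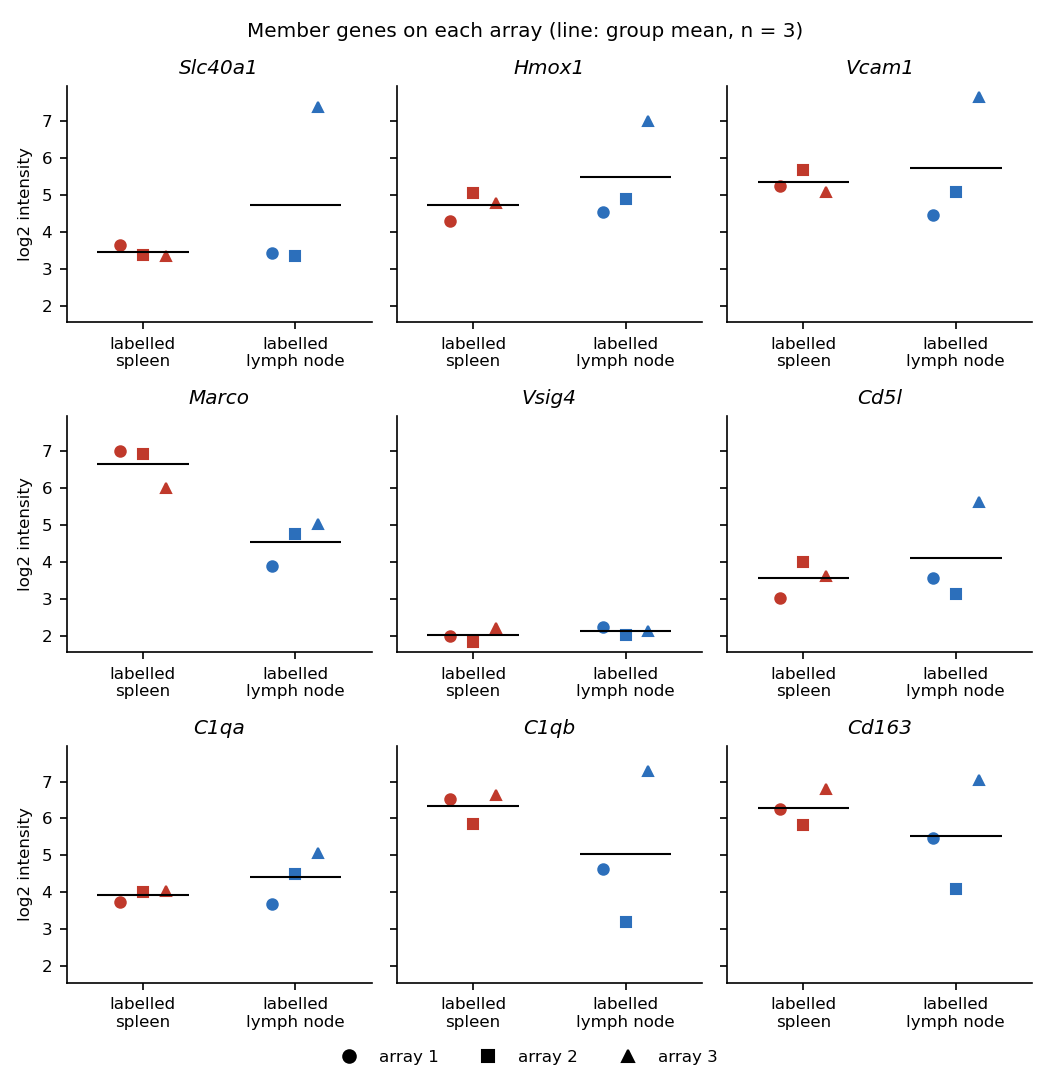
Log2 intensity of the 9 genes on each array, with the 3 arrays labelled spleen left and the 3 labelled lymph node right; symbols mark the array number and lines the group means. Lymph node array 3 lies far above the other lymph node arrays for Slc40a1, Hmox1, Vcam1, Cd5l and C1qb, while the groups are separate for Marco.

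The stretch before the transcription start is shown for C1qb and Cd163, whose values ran together most closely of all pairs, for Marco, the 1 gene that passed the test, and for Cd5l, which stood high on lymph node array 3 alone. Each line gives the 250 bases upstream of the start on the gene's strand, from RefSeq on build GRCm38.p6. Capitals mark matches, on either strand, to GAGGAA, a core bound by PU.1 and SPI-C, to TGCTGA, part of the element bound by MAF factors, and to TGACNNNGC, the core of the element shared by NRF2 and BACH1.
C1qb: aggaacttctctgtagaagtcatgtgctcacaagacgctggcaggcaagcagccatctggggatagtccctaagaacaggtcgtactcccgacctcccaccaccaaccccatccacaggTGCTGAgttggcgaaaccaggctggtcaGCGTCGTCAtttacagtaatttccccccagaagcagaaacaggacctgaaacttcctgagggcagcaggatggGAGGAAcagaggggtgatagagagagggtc
Cd163: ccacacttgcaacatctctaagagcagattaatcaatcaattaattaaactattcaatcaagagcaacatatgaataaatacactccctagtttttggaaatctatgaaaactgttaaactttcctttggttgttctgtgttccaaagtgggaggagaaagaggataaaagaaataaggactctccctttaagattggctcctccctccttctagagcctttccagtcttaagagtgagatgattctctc
Marco: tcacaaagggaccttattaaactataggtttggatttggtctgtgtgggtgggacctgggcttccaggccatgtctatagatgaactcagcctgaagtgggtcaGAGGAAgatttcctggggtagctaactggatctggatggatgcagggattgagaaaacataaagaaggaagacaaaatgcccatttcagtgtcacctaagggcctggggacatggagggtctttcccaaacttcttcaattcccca
Cd5l: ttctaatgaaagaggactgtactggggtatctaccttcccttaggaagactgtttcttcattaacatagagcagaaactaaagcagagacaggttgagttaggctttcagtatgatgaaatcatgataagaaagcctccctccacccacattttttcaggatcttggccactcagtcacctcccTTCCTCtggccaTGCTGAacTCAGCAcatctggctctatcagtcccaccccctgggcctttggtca
The C1qb stretch lies at chr4:136886201-136886450 on the minus strand, that of Cd163 at chr6:124304401-124304650 on the plus strand, that of Marco at chr1:120505025-120505274 on the minus strand and that of Cd5l at chr3:87357631-87357880 on the plus strand. The promoter table held 5 of the 9 genes, these and Vsig4. The GAGGAA letters occurred in 4 of the 5, all but Cd163, and in 23.3% of 32851 promoters of the same length. The TGCTGA letters occurred in 2 of the 5, C1qb and Cd5l, against 16.1% of all promoters, and TGACNNNGC in 1, C1qb, against 10.2%. No match overlapped another in these 5 stretches. C1qb and Cd163 shared none of the 3 motifs in this window, which says nothing about the factors themselves.

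The iron genes come first. Slc40a1 had a log2 intensity of 3.66, 3.39 and 3.34 on the arrays labelled spleen, against 3.43, 3.34 and 7.39 on the arrays labelled lymph node. The first 5 of these values lie within a narrow band, and lymph node array 3 lies 3.96 log2 units above the higher of the other lymph node arrays, which is 15.6-fold. In intensity that array read 168.2 units, where the other 5 read 10.1 to 12.6. The difference between the groups was -1.26 ± 0.97 (SE, adjusted p = 0.556), and 0.08 ± 0.19 (adjusted p = 0.891) without lymph node array 3. A second probe set of Slc40a1 gave 2.35, 2.35 and 2.58 on the arrays labelled spleen, against 3.36, 2.68 and 6.92 on the arrays labelled lymph node, so 2 separate probe sets hold the same single high array.

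Hmox1 stood at 4.31, 5.06 and 4.79 on the arrays labelled spleen, against 4.55, 4.90 and 7.0 on the arrays labelled lymph node. Lymph node array 3 was 4.29-fold above the higher of the other lymph node arrays, and the remaining 5 arrays overlapped. The difference was -0.76 ± 0.59 (SE, adjusted p = 0.555), and -0.01 ± 0.27 (adjusted p = 0.994) without that array. The gene is also a target of NRF2, which answers oxidative stress, and of its competitor BACH1. Of 14 other measured targets or regulators in the NRF2 and BACH1 list, 4 read above both other lymph node arrays on lymph node array 3. By over 2 log2 units, 0 did. The shares over all genes were 37.3% and 0.299%. A part of NRF2 or BACH1 in the Hmox1 values was not tested.

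Cd5l, which encodes the secreted protein AIM of tissue macrophages, read 3.04, 4.01 and 3.62 on the arrays labelled spleen, against 3.56, 3.15 and 5.64 on the arrays labelled lymph node. Lymph node array 3 was again the single high value, 4.22-fold above the higher of the other lymph node arrays. The difference was -0.56 ± 0.61 (SE, adjusted p = 0.691), and 0.20 ± 0.32 (adjusted p = 0.817) without it. The sign of this difference, like that of Slc40a1, thus turns with 1 array.

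Vcam1 encodes an adhesion molecule that red pulp macrophages share with endothelium and that binds the integrin of Itga4 and Itgb1. Its brightest probe set gave 5.25, 5.69 and 5.09 on the arrays labelled spleen, against 4.47, 5.09 and 7.66 on the arrays labelled lymph node, with a difference of -0.40 ± 0.73 (SE, adjusted p = 0.834). Without lymph node array 3 it was 0.57 ± 0.28 (adjusted p = 0.364). A second probe set gave 6.43, 5.80 and 4.86 on the arrays labelled spleen, against 4.10, 3.17 and 7.66 on the arrays labelled lymph node. Both of these probe sets were highest on lymph node array 3, and both placed the arrays labelled spleen above the other lymph node arrays, the first by 34.1 against 34.0 intensity units at its closest and the second more widely. The last of the 3 probe sets varied less, with 4.13, 4.52 and 4.45 on the arrays labelled spleen, against 4.45, 4.13 and 5.09 on the arrays labelled lymph node. The mean of the 3 probe sets differed by 0.05, so no direction between the groups can be given for Vcam1. The endothelial markers, 10 measured genes, had means of 4.30, 4.12 and 4.36 on the arrays labelled spleen. The means on the arrays labelled lymph node were 4.25, 4.29 and 4.22, not raised on array 3. These means cover genes near the bottom of the scale, such as Tek (1.54 to 2.10), and genes of opposite direction. In limma, Cdh5 differed by 2.16 ± 0.40 (SE, adjusted p = 0.0343) and Pecam1 by -0.99 ± 0.18 (adjusted p = 0.0343). Of the 6 fits that omit 1 array, Cdh5 passed in 2 and Pecam1 in 1. A part of endothelial cells in the Vcam1 values was not tested.

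**Figure D2:**
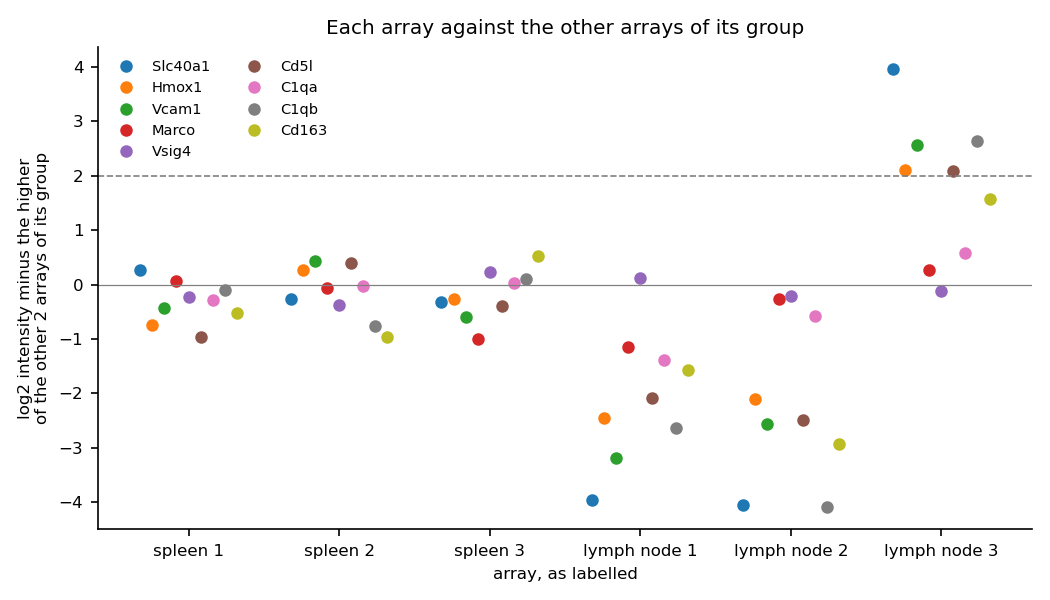
For each array, the log2 intensity of each of the 9 genes minus the higher of the other 2 arrays of its group; the dashed line marks 2 log2 units. Only lymph node array 3 has points above that line, 5 of 9, with Slc40a1 at 3.96.

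The scavenger receptors behaved differently from one another. Marco, a receptor for bacteria and particles that is best known from marginal zone macrophages of the spleen, had 7.01, 6.94 and 6.01 on the arrays labelled spleen, against 3.89, 4.77 and 5.03 on the arrays labelled lymph node. The groups did not overlap, which held for 24.5% of all genes (11.8% with the arrays labelled spleen higher), and lymph node array 3 lay with its own group. Marco rose 4.27-fold in the arrays labelled spleen, a difference of 2.09 ± 0.37 (SE, adjusted p = 0.0310), and it was the 1 gene of the 9 past the threshold, where 3.4% of all genes passed. Without lymph node array 3 the difference was 2.33 ± 0.39 (adjusted p = 0.0394). It fell short of the threshold on leaving out any of 4 arrays: the adjusted p was 0.107 for lymph node array 1, 0.109 for lymph node array 2, 0.0962 for spleen array 1 and 0.0642 for spleen array 2, with differences from 1.76 to 2.42 over the 6 fits that omit 1 array. On log2 of the value plus 16 the difference was 1.55 (adjusted p = 0.0544), and it was 1.70 (adjusted p = 0.896) when the poly-A controls entered the fit. Those controls and the mean of the plasmacytoid DC markers were also higher in the arrays labelled spleen. Within that group Marco read 7.01, 6.94 and 6.01, the controls 9.02, 8.41 and 9.06, and the plasmacytoid DC markers 7.15, 7.13 and 8.51. An order over 3 arrays cannot show whether either is related to Marco. The part of the controls in the difference of Marco was not tested beyond that fit. The part of the plasmacytoid DC markers was not tested.

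Cd163, the receptor that takes up haemoglobin bound to haptoglobin, read 6.26, 5.82 and 6.79 on the arrays labelled spleen, against 5.46, 4.10 and 7.03 on the arrays labelled lymph node. The lymph node arrays thus spread over more than the whole spleen range, with array 3 at the top and array 2 at the bottom. The difference was 0.76 ± 0.66 (SE, adjusted p = 0.606), and 1.51 ± 0.45 (adjusted p = 0.151) without lymph node array 3, when the groups no longer overlapped. Without that array the groups were apart for 4 of the 9 genes, Cd163, C1qb, Marco and Vcam1, and for 36.5% of all genes.

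Vsig4, the complement receptor CRIg of tissue macrophages, had 2.00, 1.85 and 2.23 on the arrays labelled spleen, against 2.26, 2.04 and 2.14 on the arrays labelled lymph node. These values span 0.42 log2 units over the 6 arrays and lie at the bottom of the scale, where the probe sets of a bacterial control transcript read 1.63 to 2.77. The difference was -0.12 ± 0.17 (SE, adjusted p = 0.775; 95% interval from -0.51 to 0.27). A level this low cannot show whether the gene differed, and lymph node array 3 was not raised in it.

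**Figure D3:**
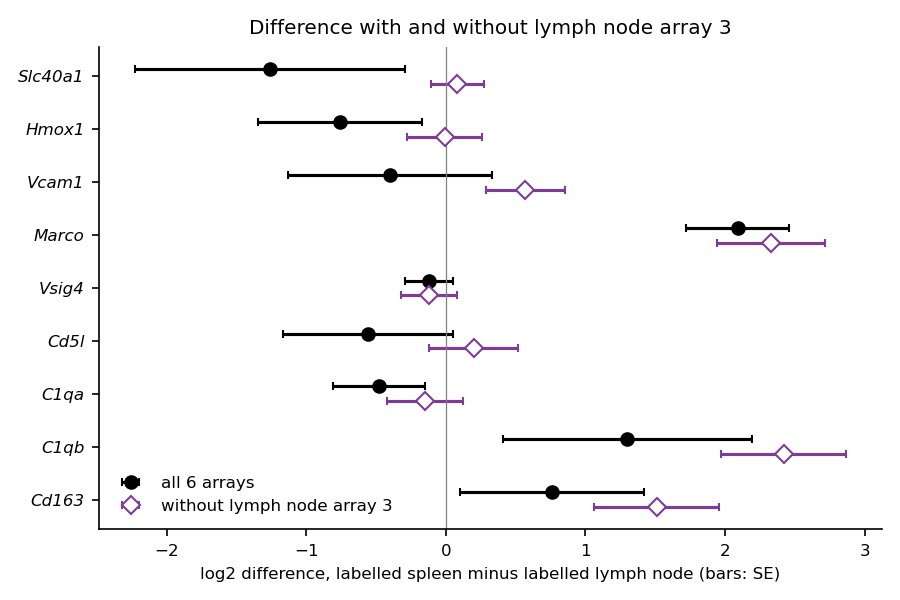
Log2 difference between the arrays labelled spleen and those labelled lymph node for each gene, with its SE, over all 6 arrays (filled circles) and without lymph node array 3 (open diamonds). Slc40a1, Vcam1 and Cd5l cross zero when the array is left out, while Marco, C1qb and Cd163 stay above it.

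The C1q chains were read by 5 probe sets, of which 2 of C1qb gave a pattern of their own. C1qa read 3.75, 4.02 and 4.04 on the arrays labelled spleen, against 3.69, 4.49 and 5.07 on the arrays labelled lymph node. Lymph node array 3 was the highest, 1.49-fold above lymph node array 2, and the difference between the groups was -0.48 ± 0.33 (SE, adjusted p = 0.496), or -0.15 ± 0.27 (adjusted p = 0.842) without that array. C1qb, by its brightest probe set, read 6.53, 5.86 and 6.63 on the arrays labelled spleen, against 4.64, 3.19 and 7.28 on the arrays labelled lymph node. The arrays labelled spleen and lymph node array 3 were high and the other lymph node arrays low, with a difference of 1.30 ± 0.89 (SE, adjusted p = 0.496). Without lymph node array 3 the difference was 2.42 ± 0.45, which is 5.37-fold, and just missed the threshold (adjusted p = 0.0506, where 2.48% of all genes passed).

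The 3 probe sets of C1qb disagree in size. The second gave 7.26, 6.01 and 7.07 on the arrays labelled spleen, against 3.32, 2.63 and 7.16 on the arrays labelled lymph node, much like the first. The remaining one gave 3.02, 3.42 and 3.82 on the arrays labelled spleen, against 3.05, 2.96 and 4.10 on the arrays labelled lymph node, a difference of 0.04 ± 0.34 (SE, adjusted p = 0.967 over all probe sets). The first and second carry the suffix for designs that can bind other transcripts, and the remaining one does not. C1qc, the remaining chain, which is named here outside the rule for named genes, read 2.68, 2.93 and 2.35 on the arrays labelled spleen, against 2.66, 2.20 and 4.08 on the arrays labelled lymph node. Every C1q probe set but 1 was highest on lymph node array 3, the exception being the second probe set of C1qb, which was highest on spleen array 1. By its probe set without the suffix, C1qb was low with its top value on lymph node array 3, as C1qa and C1qc were. The high spleen values of C1qb rest on the suffixed probe sets. The probe set without the suffix read 2.96 to 4.10, not far above the bacterial control transcript (up to 2.77). Its small difference therefore cannot decide between the probe sets.

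**Figure D4:**
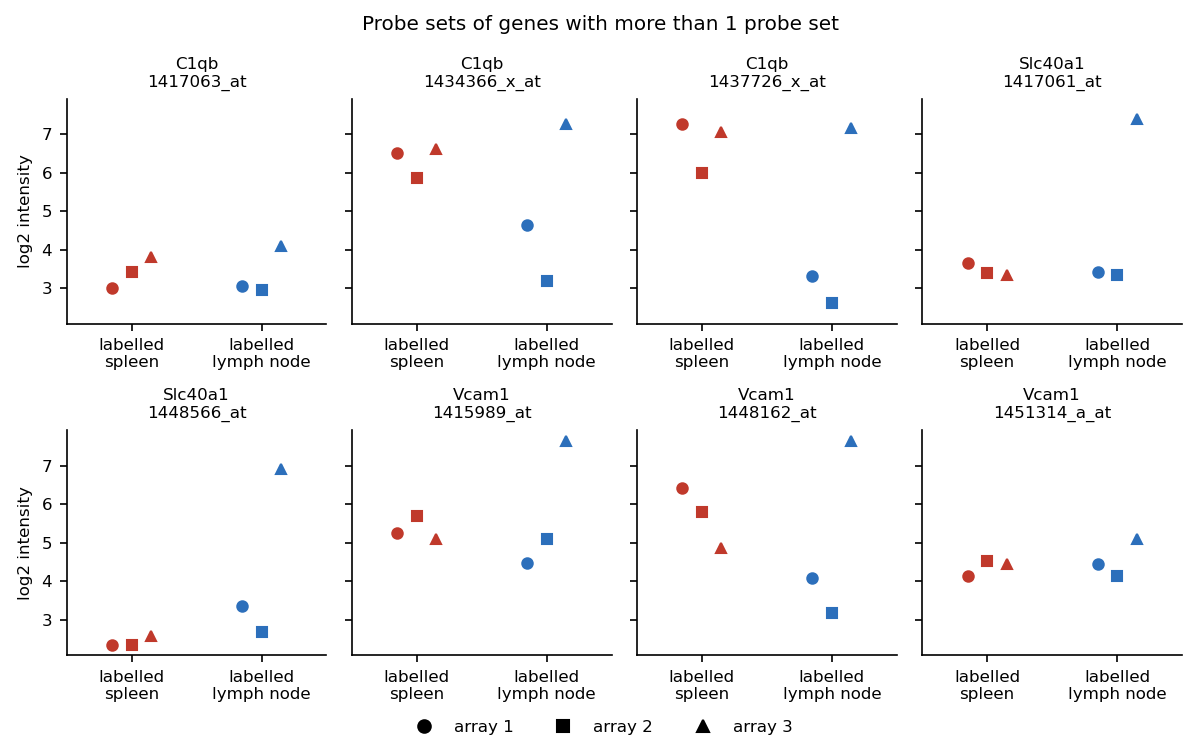
Log2 intensity on each array for every probe set of Slc40a1, Vcam1 and C1qb, with the arrays labelled spleen left and those labelled lymph node right. Both Slc40a1 probe sets hold 1 high array, while the first C1qb panel, the probe set without a cross-hybridisation suffix, stays between 2.96 and 4.10.

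Across the 6 arrays the genes fell into patterns, given here as Pearson correlations that describe these 6 values only and share the groups and the high lymph node array. Slc40a1 ran with Hmox1 (r = 0.94), Vcam1 (0.93), Cd5l (0.91) and C1qa (0.81), and C1qa also with Hmox1 (0.91), Vcam1 (0.84) and Cd5l (0.76). C1qb, by its suffixed probe set, ran with Cd163 (0.98) and less with C1qa (0.16). Marco was not close to Slc40a1 (-0.20). With each gene centred on its own mean, the average of the 9 was -0.03, 0.07 and 0.06 on the arrays labelled spleen, against -0.68, -0.78 and 1.36 on the arrays labelled lymph node. The median difference between the groups over the 9 genes was -0.40, beside -0.005 over all genes, and 0.20 without lymph node array 3.

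Outside the set, the genes whose values followed that average most closely over the 6 arrays, among 7078 genes with an array above the median level, were Nfat5 (r = 0.996), the transcription factor of osmotic stress, Nr3c1 (0.992), the glucocorticoid receptor, Cyp7b1 (0.979), Hnrnph1 (0.973) and Wnt2b (0.972). Nfat5 stood at 9.51, 9.51 and 9.53 on the arrays labelled spleen, against 9.20, 9.24 and 10.05 on the arrays labelled lymph node. Its range is far narrower than that of Slc40a1, so the likeness is one of shape. The mean of C1qa and C1qb was followed most closely by Ubqln4 (0.981), Rab22a (0.976), Wnt2b (0.975), Nr3c1 (0.975) and Ddx10 (0.967).

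Among the 37 genes that stood over 2 log2 units higher on lymph node array 3, 6 others belong to the lists used here. Axl, a receptor for apoptotic cells, read 5.57, 5.51 and 3.34 on the arrays labelled spleen, against 3.57, 2.74 and 6.64 on the arrays labelled lymph node. Mrc1, the mannose receptor of macrophages, read 4.88, 5.22 and 4.29 on the arrays labelled spleen, against 3.51, 3.45 and 6.33 on the arrays labelled lymph node. The others were Eomes and Gzma of the NK cell list, Cd28 of the T cell list and Klk1 of the plasmacytoid DC list, and these 4 were not above every array labelled spleen. All 5 genes of the set among the 37 were above every array labelled spleen, as were 18 of the 37. Fcna, which encodes ficolin A, a complement lectin, is 1 of them and was chosen after its values were seen: it read 3.29, 3.10 and 3.32 on the arrays labelled spleen, against 3.10, 3.10 and 6.31 on the arrays labelled lymph node.

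Of 15 other genes of the red pulp macrophage programme, 0 passed in either direction in limma, where 3.4% of all genes did. Their median difference was -0.07. On lymph node array 3 the list averaged 5.51, against 4.83 and 4.82 on the other lymph node arrays. Of its 15 genes, 10 read above both of them, 2 by over 2 log2 units, beside 37.3% and 0.299% of all genes. The 2 genes were Axl and Mrc1, described above. Spic, the transcription factor on which red pulp macrophages depend, is named here outside the rule for named genes. It read 5.41, 5.11 and 3.96 on the arrays labelled spleen, against 5.45, 4.84 and 6.07 on the arrays labelled lymph node. Lymph node array 3 was the highest, by 0.62 log2 units over lymph node array 1. Csf1r, the receptor for the macrophage growth factor, read 9.29, 8.72 and 8.10 on the arrays labelled spleen, against 9.19, 8.79 and 10.09 on the arrays labelled lymph node. Lymph node array 3 was not the highest for every macrophage gene. Cd68, a lysosomal protein of phagocytes, read 7.01, 7.79 and 7.76 on the arrays labelled spleen, against 8.70, 9.05 and 8.04 on the arrays labelled lymph node (difference -1.07 ± 0.31 SE, adjusted p = 0.112). Adgre1, a surface receptor of macrophages, differed by -1.17 ± 0.41 (adjusted p = 0.174) and Siglec1, the sialoadhesin of marginal metallophilic macrophages, by 1.10 ± 0.37 (adjusted p = 0.158).

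Of 22 measured genes of iron and haem handling, 0 passed in limma in either direction, where 3.4% of all genes did. Slc40a1 and Hmox1 did not pass either. The median difference of the 22 was -0.11. On lymph node array 3, 11 of the 22 read above both other lymph node arrays and 0 by over 2 log2 units, where 37.3% and 0.299% of all genes did. Flvcr1, a haem exporter, came closest to the threshold, at 7.58, 7.02 and 6.54 on the arrays labelled spleen, against 8.45, 8.31 and 8.10 on the arrays labelled lymph node (adjusted p = 0.0523). Tfrc, the transferrin receptor, differed by -0.82 ± 0.21 (SE, adjusted p = 0.0843), Lrp1, which takes up haem bound to haemopexin, by -0.65 ± 0.15 (adjusted p = 0.0611) and Ncoa4, the receptor that delivers ferritin to lysosomes, by 0.53 ± 0.15 (adjusted p = 0.111). The red blood cell and erythroid markers, 8 measured genes, averaged 3.60, 3.52 and 3.72 on the arrays labelled spleen, against 3.51, 3.62 and 3.94 on the arrays labelled lymph node. The haemoglobin gene Hba-a1 is named here outside the rule for named genes. It read 3.00 to 3.17 on the arrays labelled spleen and 3.09 to 3.36 on the arrays labelled lymph node.

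In the NRF2 and BACH1 list 2 of 14 measured genes were higher and 0 lower in the arrays labelled spleen. The shares over all genes were 2.03% and 1.37%, and the median difference of the list was 0.25. Gsr, glutathione reductase, stood at 8.33, 8.29 and 8.03 on the arrays labelled spleen, against 7.19, 7.35 and 7.35 on the arrays labelled lymph node (adjusted p = 0.0310). Gclc, the catalytic subunit of glutathione synthesis, was 2.15-fold higher (adjusted p = 0.0331). Hmox1 itself, which is not counted in that list, did not pass. Of the 6 fits that leave out 1 array, Gsr passed in 1, failing without lymph node array 1, 2 or 3 or spleen array 1 or 2, and Gclc in 2, failing without lymph node array 1 or 2 or spleen array 1 or 2.

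Over all genes, 2.03% were higher and 1.37% lower in the arrays labelled spleen. Complement genes other than C1qa and C1qb, with C1qc among them, had 1 of 17 measured members higher and 0 lower, with a median of -0.05. That gene was Clu, which encodes clusterin, an inhibitor of the membrane attack complex, at 6.76, 6.24 and 6.18 on the arrays labelled spleen, against 4.78, 4.11 and 4.43 on the arrays labelled lymph node (3.88-fold, adjusted p = 0.00910). It failed only without lymph node array 2 (adjusted p = 0.0560) among the fits that leave out 1 array. The probe set read for Clu, 1 of 4, carries the suffix for designs that can bind other transcripts. The other probe sets of Clu are not given here. Cd59a, another inhibitor of that complex, differed by 1.46 ± 0.33 (SE, adjusted p = 0.0554), Cfb, of the alternative pathway, by 1.15 ± 0.26 (adjusted p = 0.0593) and Cfp, properdin, by -0.80 ± 0.20 (adjusted p = 0.0751). Among 11 complement and C1q receptors 0 were higher and 2 lower, Cr2, complement receptor 2 (3.02-fold lower, adjusted p = 0.0466), and Itgax, the CD11c chain used for the sort (1.96-fold lower, adjusted p = 0.0310). Both failed without lymph node array 1, 2 or 3 or spleen array 1.

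Of 21 scavenger receptor and tissue macrophage genes 0 were higher and 1 lower, beside 2.03% and 1.37% of all genes, with a median of 0.11. Cd209b, the SIGN-R1 lectin of marginal zone macrophages, was lower in the arrays labelled spleen, at 2.83, 3.99 and 3.41, against 4.99, 4.74 and 4.81 in the arrays labelled lymph node. Its direction is opposite to that of Marco (adjusted p = 0.0402). It passed in 1 of the 6 fits that leave out 1 array, that without spleen array 2. Cd36, a scavenger receptor for lipids, differed by 1.60 ± 0.37 (SE, adjusted p = 0.0633) and Apoe, the lipid carrier of macrophages, by -0.93 ± 0.25 (adjusted p = 0.0953). Of 10 adhesion partners of VCAM1 and related genes, 0 passed in limma, where 3.4% of all genes did. Itga4, the alpha chain of its receptor, differed by -0.51 ± 0.16 (adjusted p = 0.135). Without lymph node array 3 the counts over these 7 lists were 1 higher in the NRF2 and BACH1 list, 2 higher among complement genes and 0 in the rest. In that fit 2.48% of all genes passed.

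Most markers of several other cell types also read higher on lymph node array 3 than on both other lymph node arrays. It lay above both other lymph node arrays for 8 of 10 plasmacytoid DC, 6 of 8 T cell, 6 of 9 NK cell, 7 of 9 B cell, 5 of 7 monocyte and 6 of 8 red blood cell and erythroid markers, beside 37.3% of all genes. It did so for 3 of 10 endothelial, 4 of 9 stromal, 2 of 8 neutrophil and 5 of 9 conventional DC markers. On lymph node array 3 the NK cell list averaged 5.62, against 4.55 and 4.51 on the other lymph node arrays, the T cell list 5.48, against 4.46 and 4.09, and the plasmacytoid DC list 6.60, against 5.78 and 5.84. The monocyte list averaged 6.55 there, against 5.97 and 5.84, the B cell list 5.08, against 4.79 and 4.81, and the red blood cell and erythroid list 3.94, against 3.51 and 3.62. The erythroid averages are low, beside a median of 5.46 over all genes. Among these erythroid markers Ermap read 6.06 on lymph node array 3, against 4.77 and 5.27 on the other lymph node arrays. Hba-a1, low on every array, read 3.14, against 3.09 and 3.36. The stromal list, at 3.42 against 3.39 and 3.22, and the neutrophil list, at 4.66 against 3.87 and 4.99, were not clearly raised on that array. The arrays labelled spleen were also above the first 2 lymph node arrays in the plasmacytoid DC list (7.15, 7.13 and 8.51), in the T cell list (6.45, 5.05 and 5.62) and in the NK cell list (6.63, 4.98 and 5.14). The same held for C1qb by its suffixed probe sets, but not by the probe set without the suffix. The part of these cell types in the values of the 9 genes was not tested. In RNA from a sorted population, more cells of a type and more RNA per cell cannot be told apart.

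**Figure D5:**
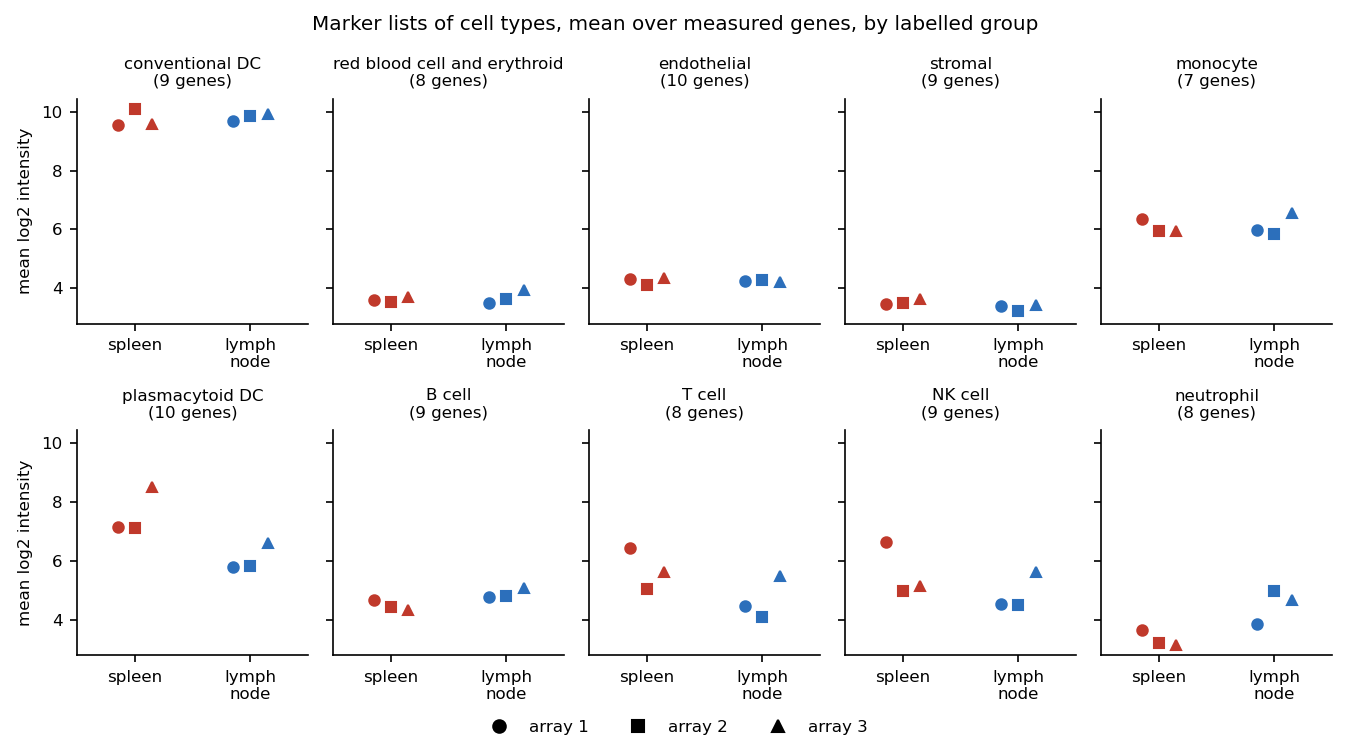
Mean log2 intensity of 10 marker lists on each array, with the arrays labelled spleen left and those labelled lymph node right. On lymph node array 3 the NK cell, T cell and plasmacytoid DC lists lie above the other lymph node arrays, and the endothelial list does not.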

How the data were processed

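The deposited table holds the authors' intensity summary of each probe set, on a linear scale and rounded to 1 decimal, with no detection calls. The submitters' processing notes name RMA and limma; their versions and roles are not given in the sources used here, and a floor or later rescaling of the values cannot be told. Carrier RNA was added at extraction and a small amount of RNA was amplified, per the labels' protocols.

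Groups came from the sample titles. Of 22690 probe sets, 64 controls were left out, 20380 others had 1 symbol in the array annotation, 691 several and 1619 none, controls included. Each of 12393 genes was read from its one-symbol probe set with the highest mean over the 6 arrays, with no filter on level. Log2 intensity was tested in R 4.3.3 with limma 3.58.1 (lmFit, eBayes), with two-sided p-values adjusted over all genes by Benjamini-Hochberg and a threshold of 0.05. The script was tested on simulated data. With 3 arrays against 3, an exact permutation test of a single value cannot go below p = 0.1, so it was not used.

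The 9 genes and all lists were chosen with earlier results of these data known. Named genes were the 9, up to 4 genes per list with the smallest adjusted p, and the 5 genes most like each of 2 profiles. Marker genes the rule names are given mainly as list levels. Listed genes without a one-symbol probe set were not analysed here. The alternatives comprised eBayes with trend and robust, a level filter set at the median, array weights, repeated quantile normalization, centring on array medians, an offset of 16, a replicate block, the poly-A control level as a covariate, the mean of all probe sets, leaving out suffixed probe sets, and leaving out each array. Same-numbered arrays of the groups correlated at 0.02, 0.24 and 0.16 in their deviations from the group means, and differently numbered ones at -0.28 to 0.13. These values do not settle whether the numbers mark pairs. The main fit left the numbers out, and the replicate block was run as an alternative.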

Additional observations from a re-analysis of the deposited data

How the results depend on the processing

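The 9 genes were recomputed under 16 alternatives. Array weights raised the count of all genes past the threshold to 764 and the poly-A covariate took it to 0 (701 at an unadjusted p under 0.05); it ran from 47 to 475 when 1 array was omitted. The count among the 9 genes, 1 in the fit of all arrays, was 0 with the offset of 16 and with the poly-A covariate, and 0 to 1 with 1 array left out. The median difference of the 9 was 1.03 with the filter at the median level, which kept 4 of them, and -0.84 to 0.20 with 1 array left out. Over the 7 context lists, 6 of 106 genes passed in the fit of all arrays, beside 3.4% of all genes. The count was 12 with trend and robust, 14 with array weights and 11 with the mean of all probe sets. It was 0 with the poly-A covariate and 0 to 9 with 1 array left out. Directions turned for C1qb (-0.84) and Cd163 (-0.73) with the poly-A covariate, for Cd5l (0.20; from -1.04 to 0.20 over the fits that omit 1 array) and Slc40a1 (0.08; from -1.95) without lymph node array 3, and for Vcam1 with array weights (0.20), with the mean of all probe sets (0.05) and without lymph node array 3 (0.57; from -1.03). No other direction of the 9 genes turned under these 16 alternatives. The covariate differs between the groups without overlap, so in that fit it and the groups cannot be told apart. In the other cases the cause was not tested. The check above did not settle whether the replicate numbers mark pairs, and not every array correlated best with its own number. The replicate block called 519 genes over all and 1 of the 9. Fits with 1 array left out hold fewer arrays. The 3 arrays per group and levels near the bottom of the scale limit Vsig4, C1qc and the low values of Slc40a1. They also limit the C1qb probe set without the suffix.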
